A study of Homo sapiens with 4 samples.

Results

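The widest H3K9me3 peaks of U2OS cells, those of at least 25 kb on chromosomes 1 to 22, numbered 1540 of 256524 autosomal peaks (0.600%) in list 2, the deposited broad peak list whose peaks carry the number 2. They were chosen by their width alone, taken as the peak's end minus its start in list 2. The 1812 peaks of list 1 that shared at least 1 bp with them, out of 309756 autosomal peaks of that list, were then drawn in. Chromatin was precipitated with an antibody against H3K9me3 (Abcam) from formaldehyde-fixed U2OS cells, a human osteosarcoma line, in 2 samples, and 2 input samples were made without antibody. All 4 samples carry the name KRAB-IDR3-TCF3 in their labels, which explain neither it nor whether the 2 samples of a kind were grown apart. The labels of the antibody samples name list 2 and those of the input samples name list 1, yet peak names in either list call it an immunoprecipitation, so no sample or group could be tied to a list. The lists are compared below as lists 2 and 1, not as antibody and input, and no value has a replicate error or a test across samples.

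H3K9me3 is written by the methyltransferases SUV39H1, SUV39H2 and SETDB1 and is bound by HP1 proteins, which recruit further methyltransferase and so let the mark spread along the chromatin fibre into broad domains. In human cells such domains are known from satellite repeats around centromeres, from clusters of KRAB zinc finger genes, which are silenced through the cofactor KAP1, and from gene-poor stretches and lineage genes that a cell does not use. The title of the series names the local density of H3K9me3 and HP1a condensates, and the wide peaks are the longest single autosomal peaks of list 2. Whether the signal inside them is unbroken cannot be seen from the lists.

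The wide peaks covered 59.1 Mb, which was 7.86% of the autosomal length covered by list 2 (752 Mb) and 2.05% of the summed chromosome spans (2879 Mb, each span running to the last peak end). Their median width was 32.8 kb, with quartiles of 28.1 and 42.6 kb. Only 230 were at least 50 kb wide and 17 at least 100 kb, so most members lay close to the limit. Of the peaks just inside it, those on chromosomes 2, 19 and 9 were 25003, 25004 and 25039 bp wide with folds of 2.41, 2.85 and 2.57. The peaks just outside it, all on chromosome 5, were 24994, 24989 and 24979 bp wide with folds of 2.44, 2.31 and 2.64. Members and peaks beside the limit therefore had overlapping folds.

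The widest peak, 255 kb, ran along chromosome 8 from 135985348 to 136240370 at a fold of 3.15, and list 1 held 2 peaks there that covered 99.3% of it. From general knowledge of hg19, and not from an annotation used here, it lies between ZFAT, which encodes a zinc finger protein with an AT hook, and KHDRBS3, which encodes an RNA-binding protein. The next widest, 159 kb, was chromosome 21 from 33367585 to 33527013 at a fold of 2.94, and a single list 1 peak covered 99.8% of it. On chromosome 11, peaks of 143 kb from 79435512 to 79578231 (fold 2.58) and of 139 kb from 115574157 to 115713556 (fold 2.71) are placed by the same general knowledge in gene-poor stretches beyond TENM4, which encodes a teneurin, and beyond CADM1, which encodes a cell adhesion molecule. A peak of 138 kb on chromosome 15 from 25247851 to 25385645 (fold 2.98) spans the place of the SNORD116 cluster, small nucleolar RNA genes of the imprinted region linked to Prader-Willi syndrome. List 1 held it entirely inside 1 peak of 195 kb.

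The other members among the 10 widest lay near a centromere or on the long arms of chromosomes 8 and 10. Chromosome 12 from 38218444 to 38346364 was 128 kb wide at a fold of 2.93 and lay 340 kb from the longest peak-free stretch of its chromosome, which stands in here for the centromere gap. Chromosome 8 from 128492704 to 128620557 was 128 kb wide (fold 2.92), in the gene-poor stretch on the lower-coordinate side of MYC. Chromosome 8 from 145851895 to 145977839 was 126 kb wide (fold 4.15) and lay 323 kb from the chromosome's last peak, where zinc finger genes such as ZNF251 are found. Chromosome 8 from 140770772 to 140891100 was 120 kb wide (fold 3.55), within TRAPPC9, a gene of vesicle trafficking. Chromosome 10 from 108802158 to 108921027 was 119 kb wide (fold 2.61), within SORCS1, which encodes a sorting receptor of neurons. List 1 covered each of these 5 regions with 1 peak, leaving out only 25 bp of the one at the end of 8q.

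Wide peaks were moderately enriched, and the highest autosomal fold of list 2, 298, belonged to a peak of 2 to 5 kb. The fold is the authors' value for each peak over the peak caller's background. Its median over the wide peaks was 2.60 (quartiles 2.47 and 2.80), against 2.42 over the 10196 list 2 peaks of 10 to 25 kb and 2.12 over all autosomal peaks of list 2. The lowest fold among the wide peaks, 2.13, was above that overall median. A fold of at least 3 was reached by 179 wide peaks, of at least 4 by 12 and of at least 5 by 1. The median rose with width, to 2.58 for 25 to 50 kb, 2.75 for 50 to 100 kb and 2.94 for 100 kb or more. Because width and fold come from the same peak calls, these values describe the selection and carry no test. The authors' q-value was at or under 0.05 in 335 wide peaks (21.8%), where 2.12% of all autosomal list 2 peaks had such a q-value and 8.09% of those of 10 to 25 kb did. Most wide peaks thus had a q-value above that limit.

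List 1, which played no part in choosing the members, also had higher folds at them than over all its peaks. The highest fold among the list 1 partners of a wide peak had a median of 2.23 and ranged between 1.82 and 16.9, against a median of 2.04 at list 2 peaks of 10 to 25 kb and a median of 1.65 over all autosomal list 1 peaks. A partner with a q-value at or under 0.05 was present at 52 wide peaks (3.38%, Wilson 95% interval 2.58 to 4.40%, counting error only), at 91 of the 10196 peaks of 10 to 25 kb (0.893%) and at 0.237% of all autosomal list 2 peaks. Of the list 1 peaks themselves, 0.198% had such a q-value. The list 1 partners of wide peaks had a median width of 39.5 kb. This follows in part from the rule, since a list 1 peak that holds a wide peak whole is itself at least 25 kb wide. Folds in list 1 rose with width. Their median was 1.99 over all list 1 peaks of 25 to 50 kb and 2.11 over those of 50 to 100 kb. How much of the higher partner fold goes with partner width was not tested. Across the 1540 wide peaks, Spearman's rho between the fold in list 2 and the highest partner fold was 0.820, against 0.389 over the 232170 list 2 peaks that had a partner. These are correlations across peaks of the same genome, which are not independent, and a wide peak touches more list 1 peaks from which the highest is taken (a mean of 1.34, against 1.29 at 10 to 25 kb).

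**Figure D1:**
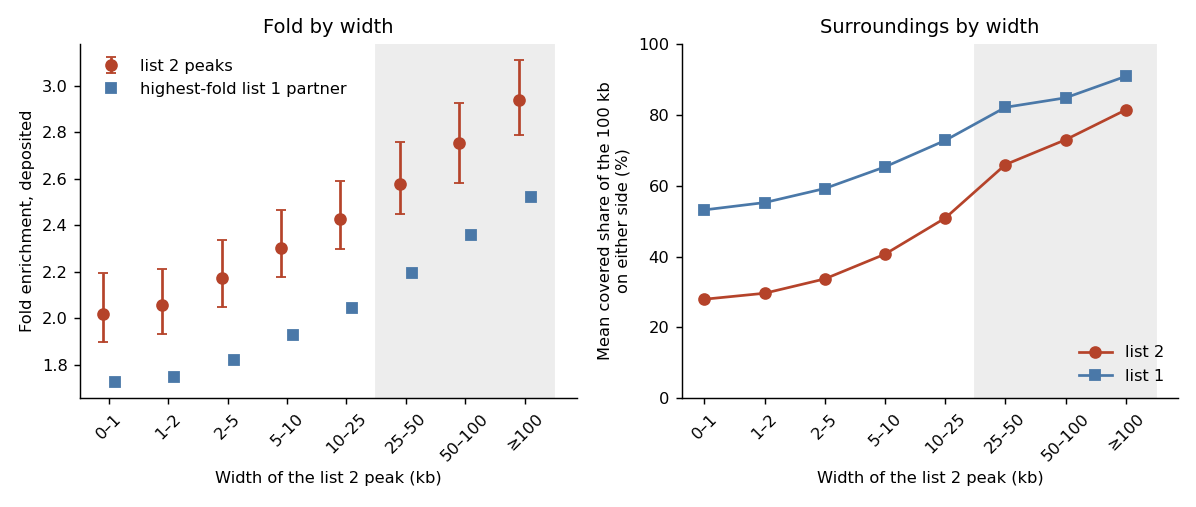
Left, the authors' fold enrichment by width of the list 2 peak in kb, with the median and quartiles of list 2 peaks (circles and bars) and the median of the highest-fold list 1 partner (squares). Right, the mean share in percent of the 100 kb on either side that peaks of list 2 and list 1 covered. The shaded classes hold the 1540 wide peaks, whose list 2 flanks were covered 67.1% on average.

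Of the 5 wide peaks with the highest folds, 3 lay less than 1 Mb from the presumed centromere gap. The list 1 fold given beside each is the highest among the overlapping list 1 peaks, each taken over its own whole length. The highest, chromosome 16 from 46385837 to 46414190, had a fold of 19.9 in list 2 and 16.9 in list 1 and bordered that gap. Chromosome 10 from 42373327 to 42437671 (4.63 in list 2 and 3.40 in list 1) lay 18.3 kb from it. The list 1 peak there was 162 kb wide and the member 64.3 kb. Chromosome 7 from 61851046 to 61917153 (4.46, and 4.41 as the highest of 5 list 1 peaks that covered 89.6%) lay 797 kb from the gap. Chromosome 2 from 89830448 to 89888613 (4.64 and 4.23) lay 2437 kb away.

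The second highest fold belonged to a gene-bearing region far from any centromere. List 1 folds are again the highest among the overlapping list 1 peaks, over their own lengths. Chromosome 7 from 6698593 to 6745716 had a fold of 4.78 in list 2 and 3.63 in list 1 and holds ZNF12, a KRAB zinc finger gene. The 7 next highest members were named after their values had been seen. Of these, chromosome 21 from 29737559 to 29765320 came first (4.41 in list 2 and 3.46 in list 1), and chromosome 19 from 28072537 to 28128211 (4.12 and 3.46) lay 341 kb from the presumed centromere gap. On chromosome 8 lay 3 of them, from 146129150 to 146220321 (4.34 and 3.80), which holds ZNF16, from 145851895 to 145977839 (4.15 and 3.49) and from 143380513 to 143423455 (4.12 and 3.33). Chromosome 1 from 40916816 to 40973315 (4.16 and 3.01) holds the KRAB zinc finger genes ZFP69B and ZFP69, and chromosome 20 from 60644315 to 60696165 (4.01 and 3.32) closes the group. These placements rest on general knowledge, and the number of zinc finger genes under all wide peaks was not counted. At the other end, the lowest fold was 2.13, at chromosome 21 from 35669388 to 35705119, which list 1 covered 92.5% in 3 peaks. The next lowest were 2.14 on chromosome 10 (84299830 to 84336031), 2.16 on chromosome 7 (135495473 to 135524699) and 2.18 at both chromosome 15 from 70244820 to 70276713 and chromosome 15 from 26349198 to 26375133. At the region from 70244820 the fold was 2.18 in list 2, and the overlapping list 1 peak had 2.31. That list 1 peak was 124 kb wide and the member 31.9 kb, so the folds belong to unlike stretches.

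Wide peaks were spread very unevenly over the chromosomes. The most, 254, lay on chromosome 2, with 227 on chromosome 8, 172 on chromosome 10, 130 on chromosome 5 and 104 on chromosome 20. These 5 chromosomes held 887 wide peaks (57.6%) on 26.7% of the summed spans. They were picked by that count, so the share describes the ranking and carries no test. The fewest were the 5 on chromosome 13, the 10 on chromosome 4 and the 15 on chromosome 17. By share of the span, chromosome 8 led with 6.82% in wide peaks, followed by chromosome 20 with 6.64%, chromosome 19 with 6.33%, chromosome 10 with 4.83% and chromosome 2 with 3.78%. Chromosomes 8 and 20 changed places when peak-free stretches of at least 1 Mb were taken out of the spans (6.97% and 6.99%) and when the width rule was applied to list 1 (17.1% and 20.0%). Chromosome 4 was lowest with 0.152% and chromosome 13 next with 0.169%.

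The share of a chromosome in wide peaks followed in part how much of it was covered, with a Spearman's rho of 0.691 over the 22 chromosomes in list 2. The part of the covered length that lay in wide peaks had a rho of 0.505 with the covered share. Single chromosomes ranked differently by these measures. On chromosome 22, peaks of any width covered 17.9% of the span in list 2, rank 21 of 22, and 26.1% once its long peak-free stretch was taken out, rank 11 with such stretches out of all chromosomes. Of that covered length 19.3% lay in wide peaks, rank 2. Chromosome 19 ranked 8 by covered share (26.2%) and 1 by the part of it in wide peaks (24.1%). Chromosome 5 ranked 5 by covered share (33.7%) and 10 by the part in wide peaks (7.97%). Chromosomes 22 and 19 are both rich in genes, as background. In list 1 the same measure gave rank 3 to chromosome 22 (30.4%) and rank 2 to chromosome 19 (32.2%), behind chromosome 20 (34.4%). Spearman's rho over the 22 chromosomes between the lists was 0.948 for this measure and 0.951 for the share of the span. Both lists come from 1 cell line and genome, so this describes them only. No value was corrected for DNA copy number.

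Single arms differed more than whole chromosomes. With each chromosome divided at its longest peak-free stretch, 8q held 223 wide peaks (9.92% of its length) and 8p held 4 (0.262%). On chromosome 20, 96 wide peaks lay on 20q (11.8%) and 8 on 20p (0.926%). On chromosome 19, 82 lay on 19q (10.7%) and 10 on 19p (1.59%). Chromosome 5 showed the opposite order of arms, with 33 on 5q (0.927%) and 97 on 5p (7.84%). In list 1 each of these contrasts had the same direction, with 24.3% of 8q against 1.80% of 8p, 29.3% of 20q against 10.4% of 20p, 21.1% of 19q against 3.22% of 19p, and 6.67% of 5q against 27.6% of 5p. The arms 20q, 19q, 8q, 5p and 10q together held 637 wide peaks (41.4%) on 11.2% of the arm length, while 17p held 0 and 4q held 2. The former were picked by their share in wide peaks, so their joint share describes the ranking and carries no test.

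Beside these shares, the folds of narrow peaks tended to be higher on arms rich in wide peaks. Over the 39 arms, the median fold of list 2 peaks under 5 kb ran between 2.04 on 13q and 2.14 on 5p, and its Spearman's rho with the arm's share in wide peaks was 0.776. In list 1 the same rho was 0.429. Whether this touches the differences between arms was not tested. The overall coverage of an arm was no full guide to its wide peaks either. List 2 peaks covered 36.4% of 20p and 34.6% of 7p, with 0.926% and 1.86% of these arms in wide peaks, but 26.1% of 22q, with 5.04% in wide peaks.

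**Figure D2:**
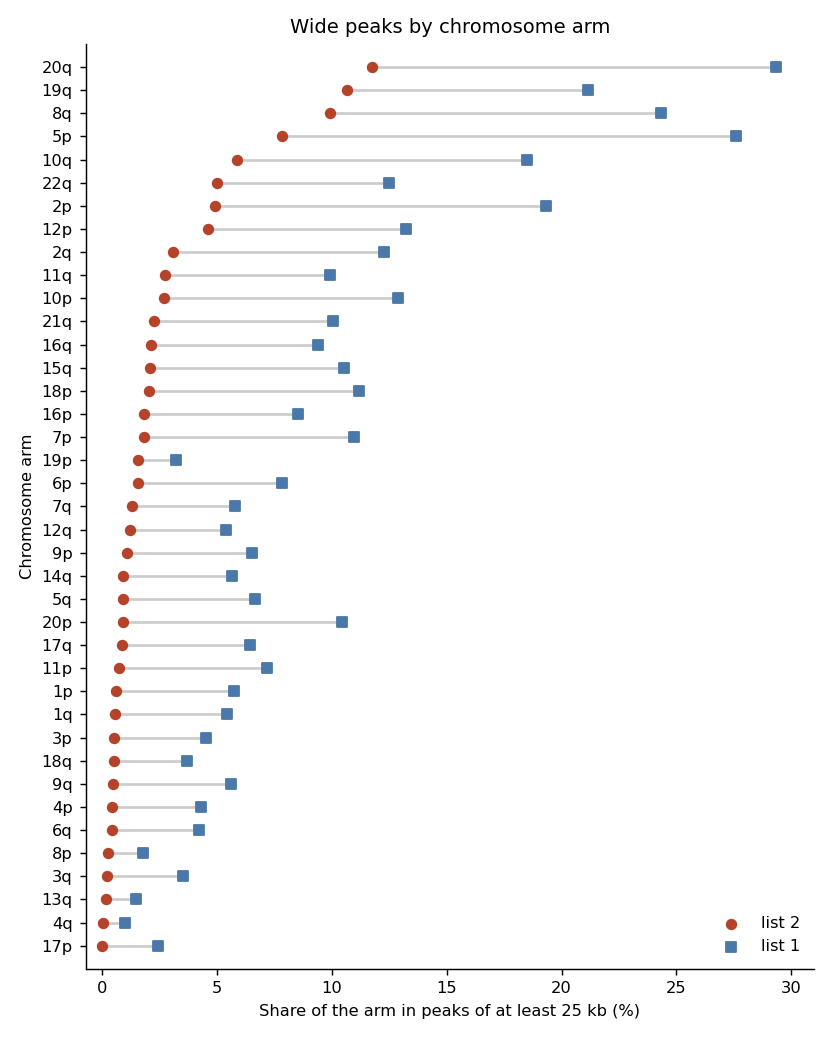
Share of each chromosome arm, in percent of its length, that lay in peaks of at least 25 kb in list 2 (circles) and list 1 (squares), ordered by list 2. Arms from 20q to 5p stand apart at the top with 7.84% or more in list 2, and 17p, with 0 wide list 2 peaks, closes the order.

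All 1540 wide peaks had a partner in list 1, where 90.5% of all autosomal list 2 peaks had one. The same held for every list 2 peak of 10 to 25 kb, so a partner was not particular to the widest. List 1 covered 98.5% of the length of the wide peaks, against 96.0% for peaks of 10 to 25 kb and 88.4% for all autosomal list 2 peaks. The share was 97.5% when only the 60780 list 1 peaks were kept whose −log10 p reached that of the weakest list 2 peak, which left 1535 wide peaks with a partner. The member covered least, chromosome 10 from 85006091 to 85034247, was still covered 80.5%, by 4 list 1 peaks. The next were chromosome 6 from 140215656 to 140240930 (83.0%), chromosome 1 from 228415941 to 228443450 (85.1%), chromosome 22 from 28540087 to 28566983 (85.6%) and chromosome 2 from 125284610 to 125341321 (86.6%). The last of these was split over 6 list 1 peaks, more than any other member.

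Most wide peaks met a single list 1 peak. There was 1 partner at 1119 of them, 2 at 341, 3 at 67, 4 at 9, 5 at 3 and 6 at 1. A wide peak lay wholly inside 1 list 1 peak in 884 cases (57.4%, Wilson 95% interval 54.9 to 59.9%), where 56.3% of all autosomal list 2 peaks did, so containment was near the level of the list as a whole. With a tolerance of 1 kb at either edge the share was 70.5%. Sharing 50% of both peaks, which depends on like widths, was reached by 1012 wide peaks (65.7%), where 20.0% of all autosomal list 2 peaks and 56.3% of those of 10 to 25 kb reached it. Inside wide peaks list 1 had 519 breaks, with a median of 1288 bp (quartiles 1196 and 1500 bp) and a longest break of 4.36 kb. The breaks that split a wide domain in list 1 were thus short.

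List 1 usually ran on past the edges. It reached beyond the lower-coordinate edge at 1381 wide peaks (89.7%) and beyond the higher-coordinate edge at 1371 (89.0%), and beyond both at 1228 (79.7%). List 1 as a whole covered 1328 Mb, against 752 Mb in list 2. No share of edges passed or matched is given here for narrower list 2 peaks, so none can be called particular to wide ones. The median reach over the 3080 edges was 7.02 kb, the lower quartile was 0.788 kb, and 42.8% of edges were passed by 10 kb or more. At lower-coordinate edges the median was 7.11 kb and the upper quartile 25.7 kb, and at higher-coordinate edges they were 6.85 and 24.3 kb, so both sides of the domains looked alike. The median reach was 6.86 kb after the same restriction of list 1. It depended much more on how list 1 was joined, and became 67.3 kb when list 1 peaks less than 3 kb apart were merged. The farthest reach was 329 kb.

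Other edges lay in nearly the same place in both lists. Of the 3080 edges, 786 (25.5%) lay within 1 kb of each other, 514 (16.7%) within 500 bp, and both edges of a peak lay within 1 kb at 109 wide peaks (7.08%). Both edges did so at 5.35% of the 505 wide peaks with a fold under 2.5, at 6.89% of the 856 with 2.5 to 3 and at 12.8% of the 179 with 3 or more. By surroundings, they did so at 7 of the 25 wide peaks whose 100 kb on either side was covered under 25% in list 2 and at 31 of the 608 (5.10%) whose flanks were covered 75% or more. The share of such peaks was thus higher at high folds and in sparse surroundings. The surroundings are not independent of the edges, because a list 1 peak that passes an edge covers part of the same flanks. List 1 covered a median of 38.1% of the flanks in the sparse class and 93.6% in the dense one. The difference by surroundings is therefore partly built into the classes. A flank that ran into a presumed centromere gap also counted as little covered. The median reach was 0.823 kb for the 25 in sparse surroundings and 13.1 kb for the 608 in dense ones.

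Individual peaks show how closely the lists could match. The peak of 126 kb at the end of 8q, from 145851895 to 145977839, met a list 1 peak that started 25 bp inside it and ended 108 bp beyond it. The peak of 28.4 kb on chromosome 16 met one that started 12 bp inside and ended 42 bp beyond, but its lower edge borders the presumed centromere gap, where no peak of either list lies.

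**Figure D3:**
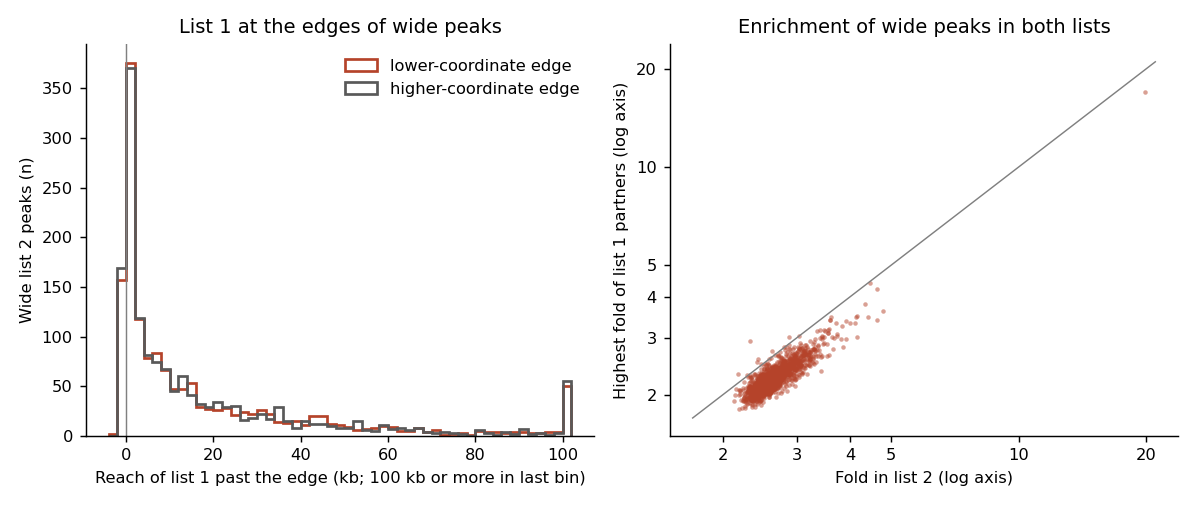
Left, number of wide list 2 peaks by the distance in kb that list 1 reached past the lower and the higher edge, with negative values where list 1 stopped inside. Most edges lie to the right of 0, with a median of 7.02 kb, and the last bin gathers all of 100 kb or more. Right, the fold of each of the 1540 wide peaks in list 2 against the highest fold of its list 1 partners, both on log axes, with the line of equality and the chromosome 16 peak alone at 19.9 and 16.9.

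The surroundings of wide peaks were densely covered too. In the 100 kb on either side, list 2 covered 67.1% on average and list 1 82.6%, against 50.9% and 72.8% beside peaks of 10 to 25 kb and 27.9% and 53.2% beside peaks under 1 kb. The average beside wide peaks was 65.9% in list 2 without chromosome 8, the chromosome with the greatest length of wide peaks. Flanks were cut at chromosome ends only, so a peak-free stretch inside them counted as uncovered. Only 25 wide peaks (1.62%) had flanks covered under 25%. Of these, chromosome 10 held 5 and chromosome 2 held 3, and chromosomes 8, 9, 13, 15, 20 and 21 held 0. The widest of them were named after their values had been seen. Chromosome 19 from 24511173 to 24596239 (85.1 kb, fold 3.46) had flanks covered 18.1%. The presumed centromere gap of chromosome 19 begins at 24.6 Mb, so part of the flank on the higher-coordinate side lay in it. Chromosome 7 from 61510498 to 61560234 (49.7 kb, fold 3.56) had flanks covered 0% in list 2 and 0.0910% in list 1. Chromosome 2 from 73526830 to 73586385 (59.6 kb, fold 2.63) had flanks covered 22.2%, and list 1 passed its edges by 342 and 253 bp only.

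Beside the presumed centromere gaps wide peaks were denser than elsewhere. The 2 Mb on either side of each gap held 92 wide peaks (5.97%, Wilson 95% interval 4.90 to 7.27%) on 2.89% of the spans, with the gaps themselves left out. In list 1 this zone held 182 of 5690 peaks of at least 25 kb (3.20%, 2.77 to 3.69%), an interval that includes the zone's share of the spans. The median fold was 2.85 for the wide peaks inside the zone and 2.59 for those outside. Within 2 Mb of chromosome ends lay 61 wide peaks (3.96%, 3.10 to 5.06%), again on 2.89% of the spans, and 159 in list 1 (2.79%). The intervals treat peaks as independent, which neighbours in a run are not.

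Wide peaks often followed each other. When wide peaks with less than 25 kb between them were joined, 659 (42.8%) fell into 242 runs of 2 or more, and 881 stood alone. There were 95 runs of at least 3 and 20 of at least 5 wide peaks, and the median span was 104 kb. On chromosome 19, 63.0% of wide peaks lay in runs, on chromosome 8 55.1% and on chromosome 20 51.9%, against 16.7% on chromosome 6 and 0% on chromosome 17. With gaps of up to 10 kb the share over all chromosomes was 29.2%, and with gaps of up to 100 kb it was 67.8%.

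The longest run joined 13 wide peaks over 719 kb on chromosome 20 from 54037017 to 54755582, the place of CBLN4, which encodes a secreted synaptic protein. Wide peaks made up 613 kb of it, all list 2 peaks 94.2% of its length and list 1 peaks 97.9%. Next came 6 wide peaks over 542 kb on chromosome 8 from 135921859 to 136463603, which include the widest peak of all and were covered 98.0% in list 2 and 98.6% in list 1, by 3 list 1 peaks. A run of 8 over 528 kb on chromosome 10 from 108489986 to 109017960 took in much of SORCS1. Another of 8 over 410 kb from 106705402 to 107115669 took in part of SORCS3, a related receptor, and broke into 13 peaks in list 1. Runs of 8 over 477 kb on chromosome 8 from 135103185 to 135580042 and of 6 over 419 kb beside the centromere of chromosome 7, from 62011746 to 62430889, complete the longest. Weighted by length, the mean fold was 3.06 in the run with the widest peak and 2.95 in the one on chromosome 7, against 2.49 in the SORCS3 run, the lowest of these 6.

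**Figure D4:**
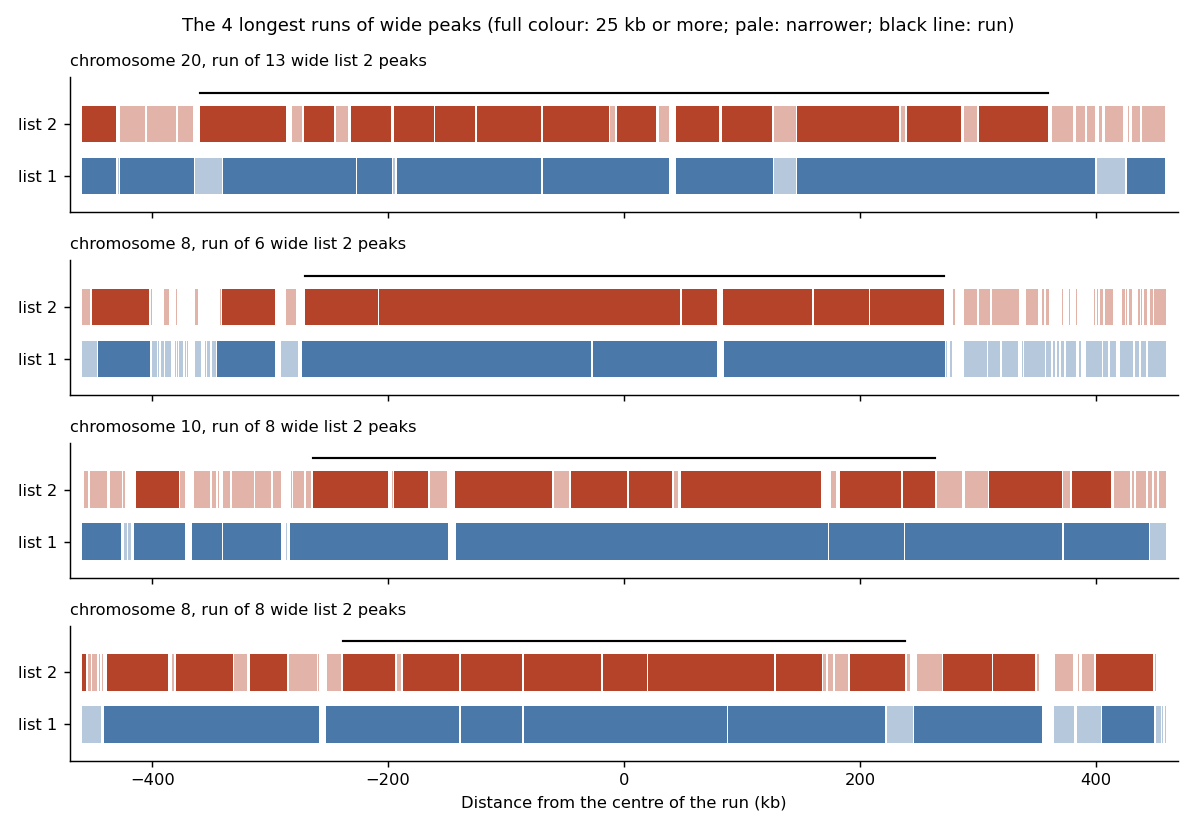
Peaks of list 2 (upper row) and list 1 (lower row) within about 459 kb of the centre of the 4 longest runs, by distance from the centre in kb, with peaks of at least 25 kb in full colour, narrower ones pale and the run marked by a black line. Inside each run list 2 has more peaks than list 1, with 20 in list 2 and 9 in list 1 on chromosome 20, and 13 and 4 on chromosome 10.

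List 1 covered most of the length of the gaps inside runs. Of the 417 gaps between neighbouring wide peaks of a run, 211 (50.6%) were bridged by 1 list 1 peak. List 1 covered 81.6% of their pooled 3.51 Mb. The mean share per wide peak of 82.6% for the 100 kb on either side is not a like measure. Those flanks can hold other wide peaks, which gaps cannot. Narrower list 2 peaks covered 49.5%. The median gap was 5.15 kb and the shortest 1125 bp. Short gaps were bridged more often, 133 of 171 under 3 kb and 42 of 153 of 10 kb or more. Whole runs lay inside 1 list 1 peak in 44 of 242 cases. The widest list 1 partner, 393 kb on chromosome 2 from 59918047 to 60311120, held 6 wide peaks and 15 list 2 peaks in all, which covered 92.9% of it, in a gene-poor stretch before BCL11A, a gene of a zinc finger repressor.

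Wide peaks were concentrated in few windows. Of 2892 windows of 1 Mb, 2346 (81.1%) held no part of a wide peak, and the 50 richest windows held 34.8% of their length. These windows, 1.73% of all, were ranked by that same length, so the share describes the ranking and carries no test. In list 1 its own richest windows, as many, held 14.9% of the length of its peaks of at least 25 kb. These shares are not a like measure. Peaks of at least 25 kb made up 238 Mb in list 1 and 59.1 Mb in list 2, and as many windows can hold only a smaller part of the longer total. Over windows, rho between the lists was 0.636. Chromosome 8 had 15 of these 50, chromosome 19 had 6, and chromosomes 2 and 10 had 5 each. The richest window, chromosome 8 from 136000001 to 137000000, lay 76.0% in wide list 2 peaks and 78.4% in list 1 peaks of at least 25 kb. Chromosome 8 from 135000001 (72.8% and 83.5%), chromosome 10 from 108000001 (68.7% and 93.9%), chromosome 8 from 140000001 (66.7% and 96.8%), chromosome 20 from 54000001 (64.2% and 80.4%) and chromosome 19 from 37000001 (62.5% and 81.6%) followed. The remaining 4 of the 10 richest began at 2000001 and 3000001 on chromosome 5, at 130000001 on chromosome 8 and at 60000001 on chromosome 2, with 46.2% to 49.8% in wide list 2 peaks. The window on chromosome 19 lies in a cluster of KRAB zinc finger genes, and that on chromosome 5 from 3000001 holds IRX1, a homeobox gene of development. List 1 shared 34 of the 50 richest windows. Joined over gaps of up to 100 kb, the longest series held 25 wide peaks over 1860 kb of chromosome 8, from 134603325 to 136463603, of which 90.1% was covered in list 2 and 95.4% in list 1. Series of 19 wide peaks followed on chromosome 8 from 129215305 to 130837285, over 1622 kb, and on chromosome 19 from 36870326 to 38241528, over 1371 kb.

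List 1 had 5690 autosomal peaks of at least 25 kb, which were 17.9% of its covered length. A wide list 2 peak was present in 1329 of them (23.4%), while 1460 of the wide list 2 peaks (94.8%) met one. For the 884 wide list 2 peaks that lay inside 1 list 1 peak this was fixed by the width rule. When instead the 1540 widest peaks of list 1 were taken, all of at least 43.7 kb, 980 wide list 2 peaks (63.6%) met one of them and 782 of the list 1 peaks (50.8%) met a wide list 2 peak. No such shares are given here for narrower list 2 peaks, so none can be called particular to wide ones. The 4361 wide list 1 peaks without a wide list 2 peak were not empty in list 2. List 2 covered a median of 73.2% of them, in a median of 5 pieces, of which the widest had a median of 12.4 kb. The widest such peak, 154 kb on chromosome 10 from 78399625 to 78554006, was covered 82.0% by 16 list 2 peaks, the widest of them 24.9 kb. Those that followed lay on chromosome 12 from 9215925 (131 kb), chromosome 5 from 60956733 (126 kb), chromosome 14 from 72561404 (114 kb) and chromosome 13 from 95090570 (109 kb), and were covered 81.3% to 84.9% by 8 to 16 list 2 peaks.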

How the data were processed

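The authors deposited 2 broad peak lists on hg19. The submitters' processing notes name MACS2 2.2.7.1, Bowtie2 2.5.0, Trim Galore 0.6.7 and bcl2fastq 2.17, without saying which step each served. The caller's settings, its control and any pooling of samples were not given in the sources used here. Each peak carries, from the authors, a fold (a ratio over the caller's background), a −log10 p, a −log10 q and a display score, and the deposited score was left unused. No list has counts of reads. Depth is therefore unknown.

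Members, classes and named regions were chosen with earlier results of these data known. The rule for named regions took the widest, highest, lowest and least covered members, the longest runs and the richest windows. An overlap needed 1 bp. Coordinates are 1-based. The longest stretch free of peaks in both lists stood in for the centromere gap, and on chromosomes 13, 14, 15, 21 and 22 it ran from the chromosome's start. Genes were placed from general knowledge and no sequence is printed, since the reference tables are built on GRCh38.p14 and the lists on hg19. Shares of peaks have Wilson 95% intervals, for counting error only. Overlap, edge and run steps were tested on simulated peaks against a base-by-base count. The work used matplotlib 3.10.9, scipy 1.17.1, pandas 2.3.3, numpy 2.4.6 and Python 3.11.15.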

Additional observations from a re-analysis of the deposited data

Results flagged for a closer look

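Chromosome X lies outside the comparisons above but held peaks of at least 25 kb. List 2 had 2 of them among 8395 peaks (0.0238%, against 0.600% on chromosomes 1 to 22), at 58354097 to 58423778 and 58427419 to 58471305, with folds of 2.40 and 2.45. List 1 had 20 among 16918 peaks (0.118%, against 1.84% on chromosomes 1 to 22), so wide peaks were a smaller share on X in both lists. They are listed here because X was left out of the rule. The widest of them, 132 kb from 58353178 to 58485293, took in both wide list 2 peaks.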

How the results depend on the processing

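No paired analysis was possible because neither list was assigned to a sample. Leaving out samples was not run for the same reason. The lists give no depth, and the cutoffs behind the calls are not known. The lowest −log10 p was 1.58 in list 2 and 1.02 in list 1. The cause of each shift was not tested. The number of wide list 2 peaks was 2653 at a limit of 20 kb, 230 at 50 kb, 335 with q at or under 0.05 and 5690 by list 1. Their share of the covered length was 11.1% at 20 kb, 2.13% at 50 kb and 17.9% by list 1, and the median fold was 2.56 and 2.78 at the limits of 20 and 50 kb. The highest share of a chromosome, 6.82%, was 20.0% by list 1 and 11.8% by the widest list 1 peaks, as many as list 2 has wide ones, an alternative added after seeing the data. List 1 covered 97.5% of wide peaks when restricted to peaks as strong in −log10 p as the weakest of list 2 and 99.1% at a limit of 50 kb. A partner was met by 65.7% when 50% of each peak had to be shared, by 99.7% with list 1 so restricted and by 63.6% with its widest peaks only. Containment in 1 list 1 peak was 70.5% with a tolerance of 1 kb. The median reach was 67.3 kb with list 1 joined over 3 kb. There were 148 runs when wide peaks had to be neighbours in the list. The richest windows held 40.0% of the length at 500 kb and 29.7% at 2 Mb. The flanks were covered 63.3% over 250 kb. The remaining alternatives gave 1540 wide peaks with a fold above the list's median, 6.99% for the highest chromosome without peak-free stretches, 98.2% covered by list 1 at 20 kb, 57.3% contained with list 1 restricted, 186 and 278 runs at gaps of 10 and 100 kb, and flanks covered 68.0% over 50 kb and 65.9% without chromosome 8.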
